A study of Mus musculus with 6 samples.

Results

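The IFIT and IFITM genes encode antiviral proteins that are induced by interferon. They were followed here as 8 genes of the deposited table of 15415 genes, taken by their gene symbols, which are the IFIT genes *Ifit1*, *Ifit2*, *Ifit3* and *Ifit3b* and the IFITM genes *Ifitm1*, *Ifitm2*, *Ifitm3* and *Ifitm6*. RNA was sequenced from peritoneal macrophages (PEMs), the macrophages collected from the abdominal cavity of mice after an injection of starch. The knockout libraries (n = 3) came from LysM-Cre; Tim-4 fl/fl animals, in which Cre recombinase made from the lysozyme gene *Lyz2* deletes a floxed stretch of *Timd4*, the gene of the phosphatidylserine receptor Tim-4, in myeloid cells. Tim-4 fl/fl mice (control, n = 3 libraries) carry the same floxed alleles without Cre, and the methods of the study give C57BL/6J males 6 to 8 weeks old. The labels give LPS, a bacterial cell wall product, as the treatment of all 6 libraries. The methods of the study describe activating PEMs with LPS, but do not say whether the sequenced PEMs were treated. The levels may or may not be those of stimulated cells. No group is labelled as untreated, and the labels do not say whether each library came from a mouse of its own.

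The deposited values are FPKM, that is, reads adjusted for gene length and for sequencing depth, and between 36170767 and 42217558 reads on listed genes stood behind each library. The genotype entries of the labels run opposite to the sample titles, and the libraries were grouped by title. *Timd4* was at 0.333, 0.394 and 0.246 FPKM in the libraries titled as knockout and at 19.5, 12.05 and 1.19 FPKM in those titled as control. In the same order, *Lyz2* reached 41.4, 4656 and 106 FPKM, compared with 7090, 7171 and 8482 FPKM, so knockout library 2 stood apart from the other two knockout libraries. The summed FPKM of 6 macrophage markers ranged from 2563 to 2840 in the knockout and from 2188 to 2659 in the control libraries. *Cd68*, the most abundant of them, lay above every control (1572 to 1685 against 816 to 1379 FPKM). *Csf1r* and *Cd14* lay below every control, the other 3 overlapped, and the median log2 difference of the 6 was -0.25. Among markers of other cells, all 5 B cell and all 5 mast cell markers were lower past the limma threshold described below, and the monocyte and dendritic cell sums overlapped between the groups. The mesothelial and fibroblast sums also overlapped, but the 4 of these markers that were tested had differences of 0.94 to 1.72 (median 1.07), in the direction of the members. Their adjusted p from limma lay between 0.0624 and 0.183, and *Col1a1*, *Col1a2* and *Pdgfra* were called higher with the replicate number as a block. The summed FPKM of 5 B cell markers was 2.78 to 5.52 in the knockout and 27.5 to 115 in the control libraries, that of 5 mast cell markers 1.89 to 2.25 against 37.5 to 49.0, that of 6 large peritoneal macrophage markers 3.56 to 6.30 against 34.4 to 140.4, that of 6 listed neutrophil markers 109 to 229 against 231 to 477 (79.3 to 104 against 183 to 211 without *Mmp8*), that of 6 monocyte markers 28.5 to 90.2 against 34.9 to 68.5, that of 5 T cell markers 1.07 to 1.72 against 2.68 to 10.7, that of 8 mesothelial and fibroblast markers 12.2 to 32.2 against 2.08 to 12.6, and that of 5 dendritic cell markers 0.335 to 0.620 against 0.325 to 0.883. *S100a9* and *Cxcr2* of the neutrophil, *Cd3e* and *Cd3d* of the T cell, *Krt19* and *Lrrn4* of the mesothelial and fibroblast, and *Cd209a* and *Clec9a* of the dendritic cell markers were at 0 in at least 1 library. The part of these cells in the results below was not tested, and in RNA from whole samples fewer cells of a type and less RNA per cell cannot be told apart.

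LPS acts on macrophages through Toll-like receptor 4, which by way of the adaptor Ticam1 and the factor Irf3 switches on interferon beta. Interferon then acts on the same and neighbouring cells through its receptor and a complex that holds Stat2 and Irf9 and binds interferon-stimulated response elements in the promoters of its target genes. IFIT proteins are built of tetratricopeptide repeats and bind viral RNA in the cytoplasm. IFITM proteins are small membrane proteins that hinder the fusion of viruses with cell membranes, Ifitm3 mainly in endosomes and Ifitm1 mainly at the cell surface.

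The RefSeq promoter windows of the 8 genes (build GRCm38.p6, from 250 bases before to 50 bases after each transcription start) were searched on both strands for GAAANNGAAA, a simple form of the interferon-stimulated response element in which N is any base. Of the 8 genes, 5 held it, and 4 of these, *Ifit1*, *Ifit3*, *Ifit3b* and *Ifitm3*, held 2 matches that did not overlap. Of all 32851 mouse windows of the same length, 3.44% held at least 1 match and 0.225% held 2 or more. The matches are shown because they divide the members into those with and without these letters close to the start. Each run below has 30 bases, reads 5′ to 3′ along the strand of the gene, and has the matches in capitals, so that a match on the opposite strand appears as TTTCNNTTTC.
Ifit1, chr19:34640785-34640814, plus strand: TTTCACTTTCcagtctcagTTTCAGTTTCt
Ifit3, chr19:34583363-34583392, plus strand: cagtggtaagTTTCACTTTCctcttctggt
Ifit3, chr19:34583397-34583426, plus strand: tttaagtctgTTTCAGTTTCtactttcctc
Ifit3b, chr19:34607759-34607788, plus strand: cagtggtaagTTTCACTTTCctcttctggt
Ifit3b, chr19:34607793-34607822, plus strand: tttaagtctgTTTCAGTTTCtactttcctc
Ifitm2, chr7:140955988-140956017, minus strand: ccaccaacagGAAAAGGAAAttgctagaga
Ifitm3, chr7:141010714-141010743, minus strand: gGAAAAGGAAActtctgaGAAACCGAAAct

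In the *Ifit1* window the matches ran from -104 to -76 relative to the start. In *Ifit3* they began at -156 and -122, and in *Ifit3b* the same 30-base runs began their matches at -188 and -154. The single match of *Ifitm2* began at -46, and the matches of *Ifitm3* lay just after the start, from base 3 to base 29. Neither of the 2 windows of *Ifit2* held these letters, and neither did the windows of *Ifitm1* and *Ifitm6*. A match is only a run of letters, and its absence covers only this window. Over the tested genes with a RefSeq window, the 310 with a match had a median log2 difference of 0.04 and the 7003 without one had a median of -0.11.

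Among the IFIT genes, *Ifit1* (Entrez 15957), whose protein binds RNA with an incompletely methylated cap, reached 881, 1030.3 and 695 FPKM in the knockout against 629.8, 456 and 174 FPKM in the control libraries, with libraries 1 to 3 of each group in this order here and below. Every knockout library lay above every control library. The means were 869 ± 168 FPKM (SD, n = 3) in the knockout and 419.9 ± 229.9 FPKM (SD, n = 3) in the control libraries. *Ifit2* (Entrez 15958), which binds AU-rich RNA, reached 479, 657 and 296 FPKM in the knockout against 178, 182 and 42.1 FPKM in the control libraries. It also separated the groups without overlap, and its ratio of means, 3.57, exceeded that of the other 7 members. *Ifit3* (Entrez 15959), a partner that stabilises Ifit1 on RNA in human cells, reached 212, 228 and 161 FPKM in the knockout against 162, 103 and 29.9 FPKM in the control libraries. Its groups overlapped by a small margin, since knockout library 3 (161.2 FPKM) fell below control library 1 (162.5 FPKM). *Ifit3b* (Entrez 667370), a near copy of *Ifit3*, reached 33.3, 44.4 and 27.6 FPKM in the knockout against 25.4, 16.5 and 4.16 FPKM in the control libraries, with no overlap.

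The IFITM genes split into abundant and scarce members. *Ifitm3* (Entrez 66141), known for blocking the entry of influenza virus, reached 1193, 964 and 934 FPKM in the knockout against 830.1, 566 and 324 FPKM in the control libraries. *Ifitm2* (Entrez 80876), a close relative of *Ifitm3*, reached 179.7, 184 and 175 FPKM in the knockout against 141, 77.7 and 87.6 FPKM in the control libraries. Neither gene had a knockout library within the range of the controls. *Ifitm1* (Entrez 68713) reached 5.48, 2.22 and 2.74 FPKM in the knockout against 0.147, 1.93 and 5.31 FPKM in the control libraries. Its groups overlapped, and the 5 reads of control library 1 set it apart from the 65 and 166 reads of control libraries 2 and 3. *Ifitm6* (Entrez 213002) reached 4.53, 5.87 and 7.04 FPKM in the knockout against 6.93, 6.79 and 2.30 FPKM in the control libraries. Here too the groups overlapped, and control library 3 alone lay below the knockout range.

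**Figure D1:**
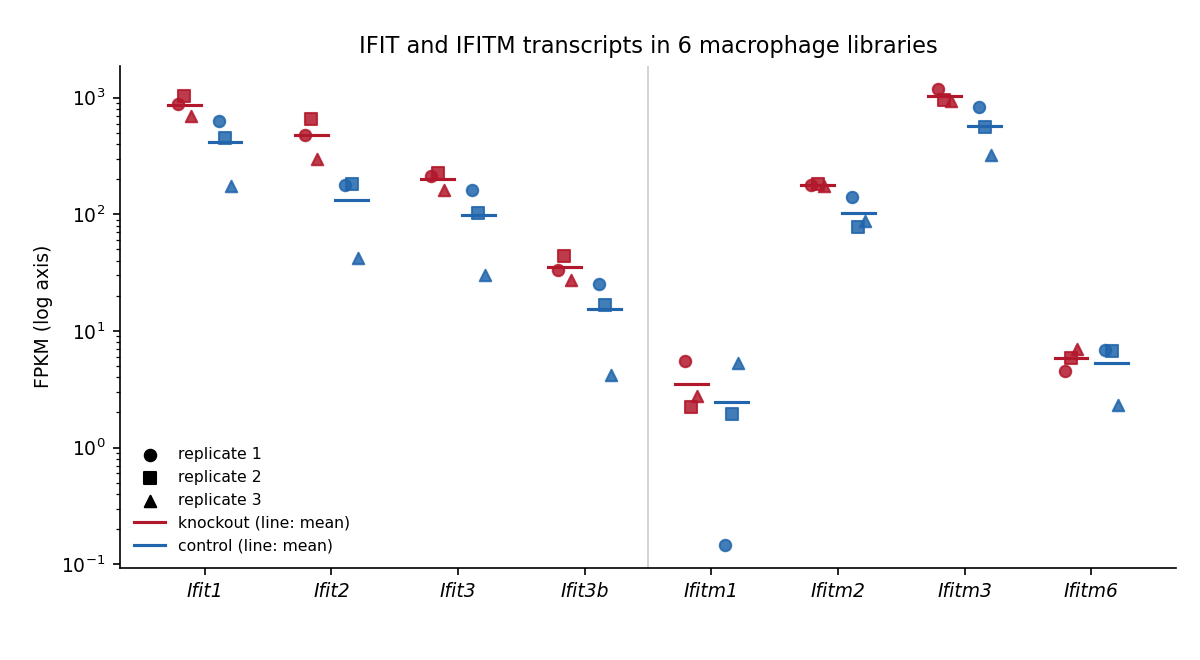
FPKM of each member on a log axis in the 3 knockout libraries (red) and the 3 control libraries (blue), with the replicate number as the symbol and the group mean as a line. The knockout libraries of Ifit1, Ifit2, Ifit3b, Ifitm2 and Ifitm3 lie above all controls, the groups of Ifit3 touch, those of Ifitm1 and Ifitm6 are intermingled, and control library 3 is the lowest library of 6 members.

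In the order of mean levels, which FPKM allows because it is per length, *Ifitm3* (1030.3 FPKM) came first in the knockout libraries, followed by *Ifit1* (869 FPKM), *Ifit2* (477 FPKM), *Ifit3* (200.2 FPKM), *Ifitm2* (179.5 FPKM), *Ifit3b* (35.1 FPKM), *Ifitm6* (5.81 FPKM) and *Ifitm1* (3.48 FPKM). The libraries of *Ifitm3* and *Ifit1*, of *Ifit3* and *Ifitm2*, and of *Ifitm6* and *Ifitm1* overlapped, and the other neighbours in this order did not. In the control libraries the order was the same except that *Ifitm2* (102 FPKM) came before *Ifit3* (98.5 FPKM). There, *Ifit3* and *Ifit3b* were the only neighbours whose libraries did not overlap. Among the 15415 listed genes, *Ifitm3* ranked between place 43 and place 55 in the knockout libraries and at places 63, 100 and 198 in control libraries 1 to 3. *Ifit1* ranked between place 48 and place 75 in the knockout libraries and at places 99, 136 and 386 in the control libraries.

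All 8 genes had a higher mean in the knockout than in the control libraries, by 2.03 to 3.57 times for the IFIT genes, by 1.76 and 1.80 times for *Ifitm2* and *Ifitm3*, and by 1.41 and 1.09 times for *Ifitm1* and *Ifitm6*. The mean of *Ifit2* was 477 ± 180.5 FPKM in the knockout and 134 ± 79.5 FPKM in the control libraries (SD, n = 3 each). The mean of *Ifitm2* was 179.5 ± 4.07 FPKM against 102 ± 34.2 FPKM, and that of *Ifitm3* was 1030.3 ± 142 FPKM against 573 ± 253 FPKM (SD, n = 3 each). None of these differences passed the threshold after adjustment over all genes. The question put by the design was whether these levels differed between PEMs of LysM-Cre; Tim-4 fl/fl and of Tim-4 fl/fl mice. Differences in log2(FPKM + 1) were estimated by limma across the 9030 genes with a mean of at least 1 FPKM in one group, with Benjamini-Hochberg adjustment and a threshold of 0.05, and all 8 members passed this filter. The estimated difference, knockout minus control, was above 0 in all 8, where 36.5% of all tested genes were above 0 and the median over all tested genes was -0.11. The median difference was 1.35 over the IFIT genes and 0.74 over the IFITM genes. With limma, 0 of the 8 passed the threshold, where 2.57% of tested genes were called higher. At an unadjusted p under 0.05, 5 of the 8 were higher against 9.93% of tested genes. Every knockout library lay above every control library in 5 of the 8 members and in 11.1% of tested genes. For a single value, the smallest two-sided p of an exact permutation test of 3 libraries against 3 is 0.1.

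*Ifit2* had the largest estimate of the 8, a log2 difference of 2.02 (SE 0.58, 95% interval 0.66 to 3.38, adjusted p = 0.0771). *Ifit3b* followed with 1.41 (SE 0.56, 95% interval 0.10 to 2.71, adjusted p = 0.157). For *Ifit3* the difference was 1.30 (SE 0.55, 95% interval -0.00042 to 2.61, adjusted p = 0.181), and for *Ifit1* it was 1.22 (SE 0.44, 95% interval 0.18 to 2.26, adjusted p = 0.133). These intervals overlap widely, and differences between the IFIT genes were not tested. *Ifitm2* came nearest to the threshold, with a smaller difference of 0.86 but also a smaller error (SE 0.22, 95% interval 0.33 to 1.38, adjusted p = 0.0607). *Ifitm3* differed by 0.94 (SE 0.32, 95% interval 0.18 to 1.70, adjusted p = 0.117). The scarce members *Ifitm1*, at 0.63 (SE 0.59, 95% interval -0.75 to 2.0, adjusted p = 0.516), and *Ifitm6*, at 0.19 (SE 0.35, 95% interval -0.62 to 1.013, adjusted p = 0.745), had intervals that reached well below 0. A pseudocount of 1 makes the differences of such low genes smaller than on the FPKM scale.

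The calls depended on single control libraries. Deviations from the group means correlated only weakly between libraries with the same replicate number (0.109, 0.109 and 0.304). Knockout library 2 with control library 1 reached 0.291, so a pairing by number is not established. The number was also used as a block. With the block, *Ifit2* passed the threshold (adjusted p = 0.0173) and 3.9% of tested genes were called higher, while *Ifit1*, *Ifitm2* and *Ifitm3* came to adjusted p = 0.0541, 0.0540 and 0.0536. Without control library 1, *Ifitm2* (difference 1.11, adjusted p = 0.0188) and *Ifitm3* (1.26, adjusted p = 0.04) passed, against 3.06% of tested genes called higher. Without control library 3, the differences of *Ifit1*, *Ifit2*, *Ifit3* and *Ifit3b* were smaller, at 0.68, 1.33, 0.61 and 0.72. Those of *Ifitm2*, *Ifitm3* and *Ifitm6* were also smaller, at 0.77, 0.58 and -0.22, and that of *Ifitm1* was larger, at 1.22. In that fit *Ifit2* passed (adjusted p = 0.0335), against 5.87% of tested genes called higher. None passed without any one of knockout libraries 1, 2 and 3 or control library 2, as with all 6 libraries. Without knockout library 2, which had kept *Lyz2*, the differences of the 8 members lay between 0.18 (*Ifitm6*) and 1.75 (*Ifit2*). Rescaling the libraries by their median of ratios moved the median of all tested genes from -0.11 to 0.02 and the differences of the 8 members to between 0.31 and 2.16, with none past the threshold. The share of tested genes above 0 depended on this scaling, with 4689 of 8996 after rescaling and 3297 of 9030 before. Rescaled values with the block, added once the other fits had been seen, gave 4 calls, in *Ifit1*, *Ifit2*, *Ifitm2* and *Ifitm3* (adjusted p = 0.0489, 0.0193, 0.0463 and 0.0438), against 5.64% of tested genes called higher.

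**Figure D2:**
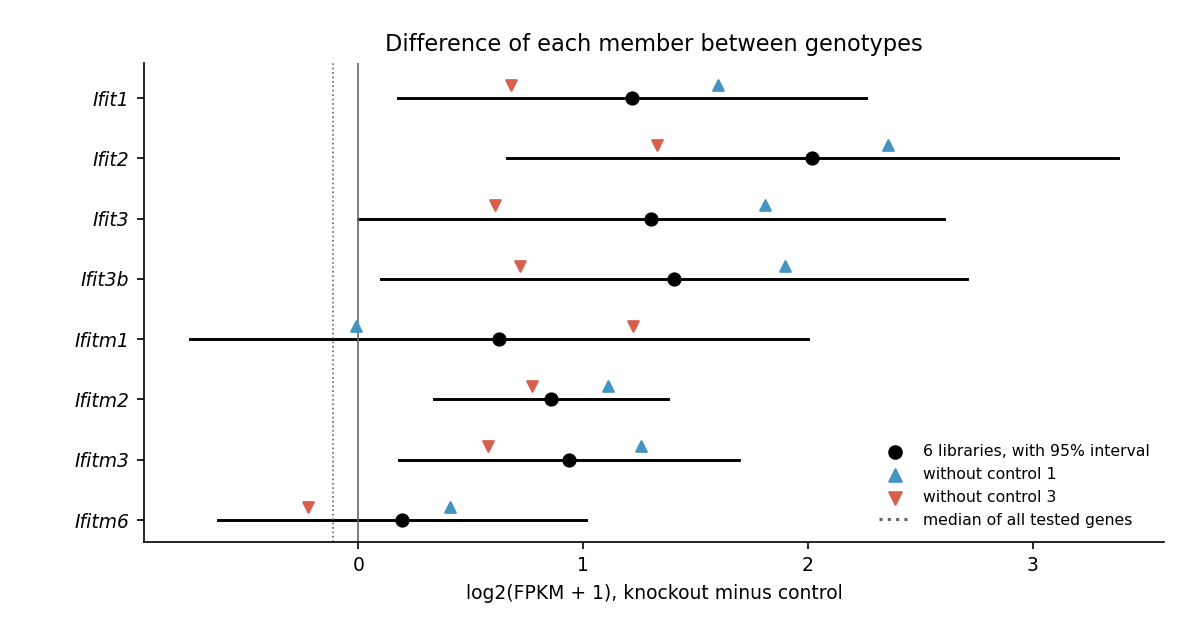
Difference in log2(FPKM + 1), knockout minus control, of each member with its 95% interval from limma (black, 6 libraries), and the estimate without control library 1 (blue) or control library 3 (red). All black points lie above 0. The IFIT, Ifitm2 and Ifitm3 estimates are lower without control library 3 and higher without control library 1. Ifitm1 and Ifitm6 fall below 0 without control library 1 and control library 3, respectively.

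The spread of the IFIT genes was wider among the control than among the knockout libraries. The SD of log2(FPKM + 1) over the control libraries was 0.96 for *Ifit1*, 1.19 for *Ifit2*, 1.24 for *Ifit3* and 1.23 for *Ifit3b*, where the median over all tested genes was 0.23. Over the knockout libraries it was between 0.26 (*Ifit3*) and 0.58 (*Ifit2*) for these 4 genes, where the median over all tested genes was 0.14. *Ifitm2* had the smallest knockout spread of the members (SD 0.03), with 175 to 184 FPKM in all 3 libraries. Control library 3 was the lowest of the 6 libraries in 6 of the 8 members, against 13.3% of tested genes. It lay at least 1 log2 unit below the mean of control libraries 1 and 2 in 6 members, against 4.01% of tested genes, and by 2.08 log2 units in *Ifit3*. *Ifitm1* went the other way and was 1.78 log2 units higher in control library 3. *Timd4* was at 1.19 FPKM (98 reads) in control library 3, against 19.5 and 12.05 FPKM (1760 and 1071 reads) in control libraries 1 and 2. Of the controls, the same library also had the lowest summed markers of B cells (27.5 FPKM), large peritoneal macrophages (34.4 FPKM) and T cells (2.68 FPKM), and the highest of mast cells (49.0 FPKM), monocytes (68.5 FPKM), mesothelial cells and fibroblasts (12.6 FPKM) and dendritic cells (0.883 FPKM). Its high sum of neutrophil markers (477 FPKM) came from *Mmp8*, which reached 19.5, 122 and 294 FPKM in control libraries 1 to 3, and the other 5 neutrophil markers summed to 211, 186 and 183 FPKM there. The part of these cells in the low IFIT values was not tested.

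The share of each member in the summed FPKM of its family was described for each library, and no difference in shares was tested. *Ifit1* made up 54.9%, 52.6% and 58.9% of the summed IFIT FPKM in the knockout libraries and 63.3%, 60.2% and 69.6% in the control libraries. *Ifit2* made up 29.9%, 33.5% and 25.1% in the knockout and 17.9%, 24.0% and 16.8% in the control libraries, so both shares differed without overlap. *Ifit3* took between 11.6% and 16.3% of the sum in the 6 libraries and *Ifit3b* between 1.66% and 2.55%, with overlapping groups. The ratio of *Ifit2* to *Ifit1* was 0.544, 0.638 and 0.426 in the knockout and 0.283, 0.399 and 0.242 in the control libraries. This ratio was chosen after the values were seen and was not tested. In the other family, *Ifitm3* made up between 77.3% and 86.8% of the summed FPKM of the 4 IFITM genes in every library and *Ifitm2* between 11.9% and 20.9%.

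**Figure D3:**
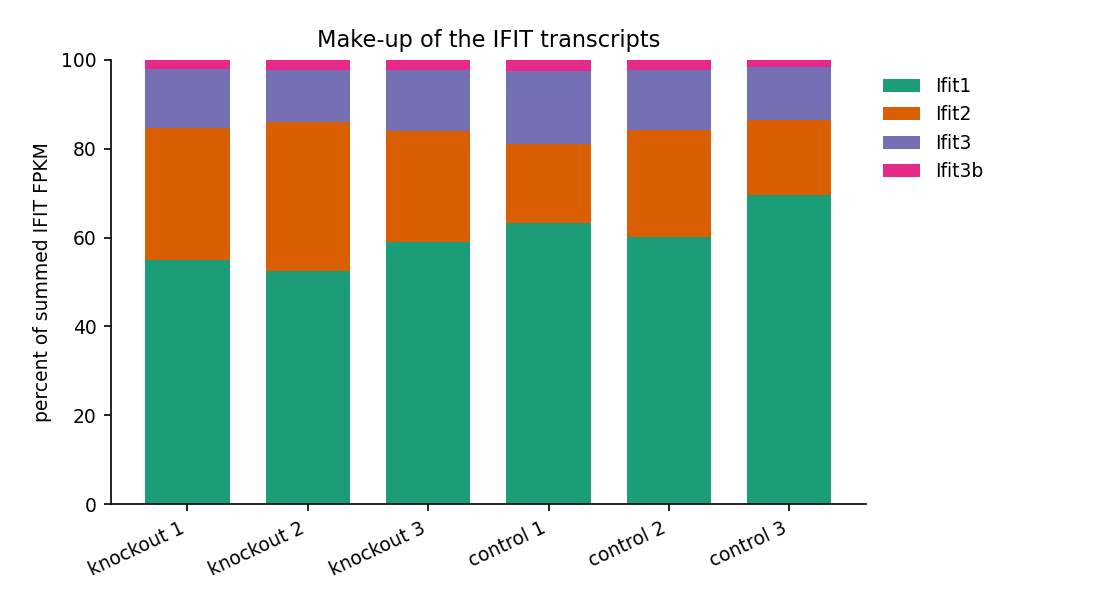
Share of each IFIT gene in the summed FPKM of the 4 IFIT genes, in percent, for each library. The Ifit2 share is 25.1% to 33.5% in the knockout and 16.8% to 24.0% in the control libraries, and the Ifit1 share is 52.6% to 58.9% and 60.2% to 69.6%.

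Near-identical sequence limits how far reads can be assigned to single members. In the GENCODE M21 transcripts, the longest open reading frames of *Ifit3* and *Ifit3b*, both of 1212 bases, were 99.1% identical, and 51.2% of the 50-base words of *Ifit3* also occurred in *Ifit3b*. The division of reads between *Ifit3* and *Ifit3b* is therefore uncertain. *Ifitm2* and *Ifitm3* had reading frames of 435 and 414 bases that were 75.8% identical, but 48.5% of the 50-base words of *Ifitm2* occurred in other genes, among them *Ifitm3* and several gene models known only by number. *Ifit1* shared 7.13% of its words with *Ifit1bl1* and *Ifit1bl2*, *Ifitm3* shared 10.0%, *Ifitm1* shared 5.02%, and *Ifit2* and *Ifitm6* shared none. The other pairs within a family were between 51.8% and 63.5% identical. How the authors' counting treated such reads is not given in the sources used here.

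Of the other genes of the families, 1 of 5 reached the filter and was tested. *Ifit1bl1*, an *Ifit1*-like gene that lies between the IFIT members, reached 15.5, 22.2 and 10.6 FPKM in the knockout against 15.1, 10.5 and 2.23 FPKM in the control libraries. Its difference of 0.96 did not pass the threshold (SE 0.58, adjusted p = 0.317). *Ifit1bl2*, *Ifitm5*, *Ifitm7* and *Ifitm10* stayed under 1 FPKM in every library, with highest values of 0.807, 0.730, 0.770 and 0.145 FPKM.

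Upstream of the members, *Ifnb1*, which encodes interferon beta, was low in this table, with 0.587, 0.831 and 1.14 FPKM in the knockout against 0.197, 0.200 and 0.215 FPKM in the control libraries. The values rest on 19, 27 and 36 reads against 6 in each control library, and do not overlap. The gene did not reach the filter, and in a fit without one it rose by 0.61 (adjusted p = 0.0464), where 0.915% of the 15415 listed genes were called higher. The list of type I interferon signalling genes held 14 genes, of which 13 were tested. Of these, 1 rose and none fell, where 2.57% of tested genes were called higher, and the median difference was 0.17. With the block 2 were called, *Stat2* and *Usp18*, where 3.9% of tested genes were called higher. *Stat2* reached 98.8, 84.6 and 75.6 FPKM in the knockout against 51.2, 36.5 and 23.3 FPKM in the control libraries and rose by 1.26 (SE 0.27, adjusted p = 0.0384), and this call was lost without a filter on low values (adjusted p = 0.0695), with rescaled values (adjusted p = 0.0522) and without any one of knockout libraries 1, 2 and 3 or control library 2 (adjusted p = 0.0663 to 0.152). *Irf9*, which joins it in the complex, differed by 0.17 (SE 0.13, adjusted p = 0.426). *Irf7*, which amplifies interferon production, had a difference of 1.08 (SE 0.43, adjusted p = 0.160).

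Among 28 other antiviral effectors, 26 were listed and tested, and all 26 had differences above 0, between 0.45 and 1.66 with a median of 0.81 (0.47 without control library 3). Only *Parp14*, an ADP-ribosyltransferase, passed the threshold (0.79, SE 0.15, adjusted p = 0.0279), though not without knockout library 1, knockout library 2 or control library 2 (adjusted p = 0.116 to 0.129). This call is 1 of 26, where 2.57% of tested genes were called higher. Of the 26, 11 were called with the block, where 3.9% of tested genes were called higher, and 16 had every knockout library above every control library, against 11.1% of tested genes. *Isg15*, a ubiquitin-like protein that is attached to other proteins after interferon, reached 975, 1072 and 827 FPKM in the knockout against 776, 654 and 371 FPKM in the control libraries (difference 0.73, SE 0.27, adjusted p = 0.141). Control library 3 was the lowest library in all 26 of these genes. In a list of 18 genes known best as targets of interferon gamma, 1 rose and 1 fell, and the median difference was 0.96 (0.54 without control library 3). With the block 8 of the 18 were called higher. The shares of all tested genes called higher were 2.57% without and 3.9% with the block. *Irf1*, a transcription factor, rose by 1.27 (SE 0.13, adjusted p = 0.00651), and *Ciita*, the activator of MHC class II genes, fell by 0.63 (SE 0.14, adjusted p = 0.0425), where 4.74% of tested genes were called lower. Without knockout library 1 or control library 2, *Irf1* came to adjusted p = 0.0521 and 0.0549. The call of *Ciita* was lost with the block (adjusted p = 0.0557), without a filter (adjusted p = 0.0538) and without any one knockout library or control library 2 (adjusted p = 0.0878 to 0.192). *Irf1* reached 187, 179.8 and 162 FPKM in the knockout against 75.3, 65.6 and 76.7 FPKM in the control libraries, so that, unlike the IFIT genes, it was not low in control library 3.

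**Figure D4:**
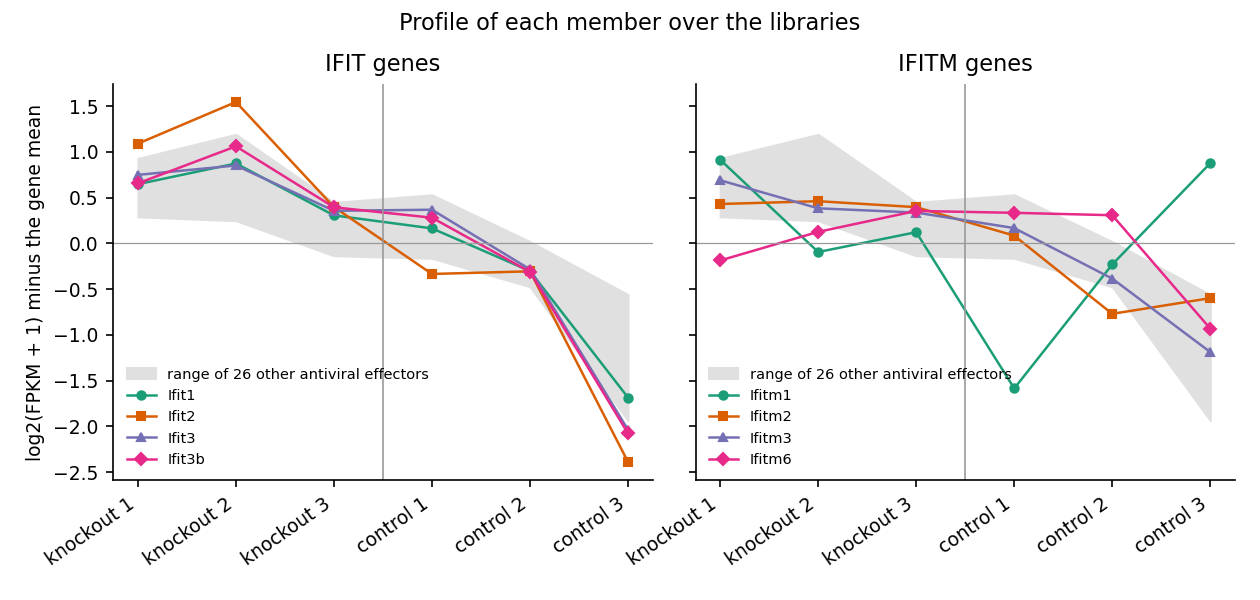
Centred log2(FPKM + 1) of each IFIT gene (left) and IFITM gene (right) over the 6 libraries, with the range of the 26 other antiviral effectors in grey. The 4 IFIT genes and Ifitm3 are lowest in control library 3, Ifit2 lies outside the grey range in knockout libraries 1 and 2 and control libraries 1 and 3, Ifit3 and Ifit3b lie below it in control library 3, and Ifitm1 follows another course with its lowest value in control library 1.

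**Figure D5:**
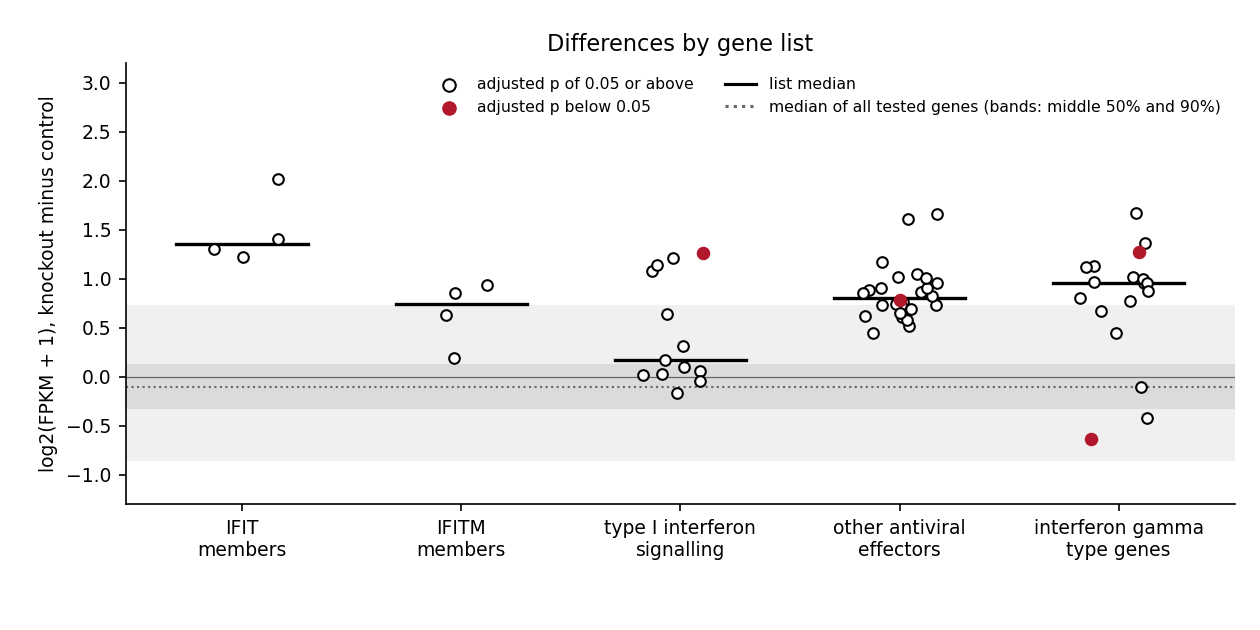
Difference in log2(FPKM + 1), knockout minus control, of each tested gene by list, with list medians as lines, calls at an adjusted p below 0.05 in red, and grey bands for the middle 50% (-0.32 to 0.12) and 90% (-0.85 to 0.73) of all tested genes. The list medians are 1.35, 0.74, 0.17, 0.81 and 0.96 from left to right, and no member is called.

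The likeness of profiles was measured as the root mean square difference of centred log2(FPKM + 1) over the 6 libraries. The genes outside the families nearest to *Ifit1* were *Oas3*, *Tmem229b*, *Usp18*, *Irf7* and *Slfn9*, at 0.094 to 0.112 log2 units. Nearest to *Ifit2* were *Cxcl10*, *Rsad2*, *Themis2*, *Nos2* and *Cmpk2*, at 0.228 to 0.286. *Ifit3* and *Ifit3b* were nearest to each other, at 0.103, and then *Ifit3* was nearest to *Socs1*, *Tgtp2*, *Tlr3*, *Usp18* and *Ifi209* and *Ifit3b* to *Cd69*, *Cmpk2*, *Socs1*, *Tgtp2* and *Tlr3*. Of the IFITM genes, *Ifitm3* was nearest to *Oasl2*, *Tap1*, *Daxx*, *Trim14* and *Zbp1*, at 0.0759 to 0.120. *Ifitm2* was nearest to *Pld3*, *S100a1*, *Crip1*, *Rnf114* and *Stard3*, at 0.149 to 0.172, and 291 tested genes were nearer to it than *Ifitm3* was. *Ifitm1* was nearest to *Ccl22*, *Fscn1*, *Htra4*, *Sema4d* and *Gdf15*, at 0.230 to 0.278, with its closest family member, *Ifitm2*, at 0.989. *Ifitm6* was nearest to *Gda*, *Ctsc*, *Mt2*, *Cetn2* and *H2bc4*, at 0.0834 to 0.177. The mean IFIT profile was nearest to *Cmpk2*, *Cd69*, *Rsad2*, *Themis2* and *Gna15*, and the mean IFITM profile, which averages unlike members, to *Rnf34*, *Mrc1*, *Gm12216*, *Clec2d* and *Abcg1*. These likenesses are descriptions over 6 libraries, and every gene of a library has that library's depth and cell make-up in common.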

How the data were processed

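Total RNA of PEMs from 3 knockout and 3 control libraries was sequenced in the study. The authors deposited FPKM per gene and library, and signal columns that the authors deposited hold group means of scaled reads. The authors' fold changes, their log2 values, p-values, q-values and direction calls are also in the table and were not used. Per the labels, the submitters' processing notes name the mm9 build. The aligner and the counting are not given in the sources used here. The FPKM and group means together gave back whole reads for 100% of values (tolerance 0.01). No per-sample column was left unused.

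The log2(FPKM + 1) values were fitted with limma 3.58.1 (eBayes with a trend) in R 4.3.3. A trial on simulated data was run first. The members and gene lists were chosen with earlier results of these data known. Named genes were the 8 members, the other family genes, list genes past the threshold (at most 4 rises and 4 falls per list), *Ifnb1*, *Stat2*, *Irf9*, *Irf7*, *Isg15*, *Timd4*, *Lyz2*, the 5 genes nearest to each profile and the 3 listed genes on each side of each cluster. Others were named after their values were seen, and 1 gene that the rule names is not reported here. Deviations of same-numbered libraries had weak positive correlations (0.109, 0.109 and 0.304), and other pairs ranged from -0.332 to 0.291. This check is the only source of the pairing. Where libraries are not from separate mice, p-values measure technical spread. All 8 members matched RefSeq windows, whose GRCm38.p6 coordinates are not those of the deposited table.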

Additional observations from a re-analysis of the deposited data

How the results depend on the processing

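Of 96 estimates of the members under 12 alternatives, 94 were above 0 and 8 passed the threshold. With 1 library left out, *Ifitm1* lay between -0.0091 (without control library 1) and 1.22, and *Ifitm6* between -0.22 (without control library 3) and 0.41. The number of members past the threshold was 0 with all libraries, 1 with the replicate block, 4 with rescaled values and the block (added after the data were seen), and 0 to 2 with 1 library left out (2 without control library 1, 1 without control library 3). The cause was not tested. For the lists, type I interferon signalling gave 1 call, 2 with the block, 0 with rescaled values, 2 with both, and 0 to 1 with 1 library left out. Other antiviral effectors gave 1 call, 11 with the block, 12 with both and 0 to 13 with 1 library left out, the highest without control library 1 and 0 without knockout library 1, knockout library 2 or control library 2. Interferon gamma type genes gave 2 calls, 1 without a filter, 8 with the block, 9 with both and 0 to 7 with 1 library left out. The 7 came without control library 3 (5 higher, 2 lower), and 0 without knockout library 1 or control library 2. Over all tested genes 660 passed (232 higher, 428 lower), 664 with rescaled values (342 higher, 322 lower) and 855 with the block (352 higher, 503 lower). With both, 860 passed (507 higher, 353 lower), and without control library 1, 788 passed (278 higher, 510 lower). The range was 8 to 1333 with 1 library left out. The low counts were 8 without control library 2, 30 without knockout library 1 and 63 without knockout library 2, and 1333 passed without control library 3. On the FPKM scale as deposited, the block changed the call of *Ifit2* alone among the members. A count model was planned only for a table of read counts and was left out for this FPKM table, and voom was run on the recovered reads. The 5 to 199 reads of *Ifitm1* and the 45 to 156 reads of *Ifitm6* limit the precision of these 2 members.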

Other observations

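The IFIT genes lie together on chromosome 19 and the IFITM members on chromosome 7 in the RefSeq annotation, from which the order of the genes was taken. Of 12 listed flanking genes, 3 on each side of each cluster, 5 were tested, and their differences lay between -0.86 and 0.0017. None of the 5 was called higher and 1 was called lower, where 2.57% and 4.74% of all tested genes were. *Fas*, a death receptor gene beside the IFIT cluster, fell by 0.86 (SE 0.15, limma, adjusted p = 0.0205), with every knockout library below every control library, and the call was lost without knockout library 1, knockout library 2 or control library 2 (adjusted p = 0.0928 to 0.114). *Ch25h*, an interferon-induced cholesterol hydroxylase gene on the same side, averaged 30.8 FPKM in the knockout and 55.3 FPKM in the control libraries (difference -0.25, SE 0.82, adjusted p = 0.869), and *Lipa* differed by -0.07. Beside the IFITM cluster, *Psmd13* differed by -0.12 and *Pgghg* by 0.0017. *Pank1*, *Kif20b*, *Htr7*, *Ifitm5*, *B4galnt4*, *Pkp3* and *Sigirr* were under the filter.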
